A study of Mus musculus with 19 samples.

Results

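The zinc finger protein genes described here carry a mouse symbol made of Zfp and a number of 3 digits. Symbols were chosen by this name and had to be listed in the gene counts of all 19 libraries. Listing depends on level: the smallest sum of counts of a listed gene over the libraries of a cell type and age was 10. This left 268 genes of 14246 that were listed in every library. Another 13 such symbols were listed in some libraries only, and 281 were listed in at least 1 library. The 13 were Zfp185, Zfp334, Zfp345, Zfp389, Zfp423, Zfp454, Zfp618, Zfp711, Zfp781, Zfp786, Zfp791, Zfp879 and Zfp964.

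The libraries were bulk RNA-seq of mouse bone marrow cells. Myeloid cells positive for the integrin CD11b were taken at 4 months (young Cd11b; 3 mutant and 4 wild-type libraries) and at 18 months (old Cd11b; 3 and 3). LK cells, which are lineage-negative and positive for the stem cell factor receptor c-Kit and hold progenitors and stem cells, were taken at 18 months only (3 and 3). Mutant (MT) libraries came from animals with mutant Asxl1, a chromatin regulator gene often mutated in clonal hematopoiesis, and WT libraries from wild-type animals. The labels name neither the allele nor its promoter, nor sex or batch, and do not say whether replicates are separate animals, so that p-values measure the spread between these libraries.

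Most genes with such names encode proteins with tandem C2H2 fingers, each of which folds around a zinc ion and reads a few bases of DNA. In many of them a KRAB box at the amino end binds TRIM28, which brings the histone H3 lysine 9 methyltransferase SETDB1, HP1 proteins and histone deacetylases to the bound site. KRAB zinc finger genes lie in clusters that grew by duplication, and many of their proteins bind retroelements. Others of the name are activators, spindle or ribosome factors, or partners of the H3K9 methyltransferases EHMT1 and EHMT2, and have no KRAB box.

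Reading the GENCODE coding sequences gave a KRAB box in 134 of the 265 genes that have one. Of these, 133 also had C2H2 fingers and are called KRAB genes below. The KRAB genes had a median of 12 fingers and a median transcript length of 3407 bases. A SCAN domain, which pairs such proteins with each other, was found without a KRAB box in 13 genes. Fingers with neither domain were found in 111 genes, with a median of 7 fingers and of 4092 bases. Another 7 genes had no finger by the pattern used, and 3 genes (Zfp783, Zfp862 and Zfp939) had no coding sequence to read. Zfp110, Zfp369 and Zfp445 had both a KRAB box and a SCAN domain. Chromosome 7 held 70 of the 268 genes, chromosome 17 held 29 and chromosome 13 held 28. In all, 142 lay within 100 kb of another of the 268, among them 96 KRAB genes. Near-identical fingers can share reads between neighbours, so counts of clustered genes are less certain than those of single ones.

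Some short motifs were more frequent in the promoters of these genes than in all promoters, and others less. RefSeq promoters of 300 bases (250 before the start and 50 after it, GRCm38.p6) were at hand for 218 of the 268 genes, 271 promoters in all. An 11-base motif read by the zinc finger protein ZFP143, searched on both strands, was present in 13.65% of them (37 of 271), against 1.976% of all 32851 promoters in the table. It was present in 20.15% of the promoters of KRAB genes and in 7.52% of those of genes without a KRAB box. The ETS core CCGGAAG was present in 21.77% against 8.858%, and the YY1 motif AANATGGC in 11.81% against 6.05%. Letters TATAAA of the core promoter box went the other way, with 8.49% against 13.62%. So did the PU.1 core GAGGAAGT, with 1.85% (5 of 271) against 3.20%, and the GATA factor motif, spelled AGATAA, with 6.27% against 11.18%. The remaining 4 of the 10 motifs searched were at 45.39% against 37.41% (CCAAT, NFY box), 8.12% against 4.60% (the 10-base motif of NRF1), 4.80% against 1.79% (TGACGTCA, CRE) and 8.49% against 7.15% (CACGTG, E-box). The 271 promoters had a median of 16 CG dinucleotides and 56% GC, against 7 and 52.67% for all promoters. All promoters belong to 27025 genes, which include genes not listed in these libraries. The part of base composition and of level in these shares was not tested. A match describes the letters in this window and not a bound site. The 5 promoters below belong to genes the results turn on, and capitals mark matches to any of the 10 motifs on either strand. Zfp112 and Zfp458 are the KRAB genes with the ZFP143 motif that were lowest in MT LK cells. The Zfp112 promoter (chr7:24112070-24112369, plus strand) holds 3 ZFP143 matches, spelled GGAAATGTAGT or GGAAGTGTAGT with the fourth and the fifth base free to vary, 1 ETS core and 1 GATA factor match, and the Zfp458 promoter (chr13:67268945-67269244, minus strand) holds 1 ZFP143 match and 1 ETS core. The Zfp809 promoter (chr9:22225453-22225752, plus strand) belongs to the known silencer of leukemia virus sequences and holds a YY1, an NFY and a PU.1 match. The promoters of Zfp239 (chr6:117861774-117862073, plus strand) and Zfp541 (chr7:16071595-16071894, plus strand) belong to the genes furthest apart between LK and Cd11b cells. In the first, the NFY box and 2 TATA matches that overlap each other were found, and in the second 1 TATA match.
Zfp112: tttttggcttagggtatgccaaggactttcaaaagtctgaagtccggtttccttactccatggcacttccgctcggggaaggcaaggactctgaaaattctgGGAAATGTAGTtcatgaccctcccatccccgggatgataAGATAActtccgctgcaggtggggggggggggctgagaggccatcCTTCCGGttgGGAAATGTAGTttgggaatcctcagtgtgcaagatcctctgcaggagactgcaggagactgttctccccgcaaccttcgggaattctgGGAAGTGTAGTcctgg
Zfp458: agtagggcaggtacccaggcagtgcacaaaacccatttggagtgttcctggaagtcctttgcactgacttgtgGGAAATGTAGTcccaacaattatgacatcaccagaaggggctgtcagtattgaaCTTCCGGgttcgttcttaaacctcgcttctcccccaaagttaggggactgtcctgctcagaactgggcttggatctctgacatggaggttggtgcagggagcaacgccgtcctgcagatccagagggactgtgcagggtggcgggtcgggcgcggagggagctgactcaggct
Zfp809: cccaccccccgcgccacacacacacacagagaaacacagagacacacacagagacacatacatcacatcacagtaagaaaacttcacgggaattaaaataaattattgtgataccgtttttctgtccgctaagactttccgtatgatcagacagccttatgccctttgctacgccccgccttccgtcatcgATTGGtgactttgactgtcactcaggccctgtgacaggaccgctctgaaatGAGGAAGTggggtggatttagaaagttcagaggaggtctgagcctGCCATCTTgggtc
Zfp239: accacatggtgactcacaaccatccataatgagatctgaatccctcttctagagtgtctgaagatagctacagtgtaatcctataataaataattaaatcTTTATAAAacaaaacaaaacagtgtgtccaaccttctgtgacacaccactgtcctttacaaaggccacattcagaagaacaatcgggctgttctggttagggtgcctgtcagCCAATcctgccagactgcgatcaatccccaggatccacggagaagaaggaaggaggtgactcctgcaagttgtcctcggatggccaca
Zfp541: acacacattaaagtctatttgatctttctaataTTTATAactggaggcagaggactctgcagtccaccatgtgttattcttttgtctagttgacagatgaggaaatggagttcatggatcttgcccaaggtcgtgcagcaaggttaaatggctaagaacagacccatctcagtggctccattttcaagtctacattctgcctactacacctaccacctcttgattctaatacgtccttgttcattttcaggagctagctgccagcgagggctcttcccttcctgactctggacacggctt

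Each library held between 26251822 and 68260809 gene counts, of which 165046 to 351175 fell on the 268 genes. Levels are given as CPM, library-scaled counts with TMM factors, which correct for differences in RNA composition between libraries. Old libraries had more myeloid transcripts than young ones. The summed CPM of 13 myeloid markers was 139170 to 170159 in old and 49087 to 60224 in young WT Cd11b libraries, against 10635 to 12436 in LK WT. The summed CPM of 7 progenitor markers was 996 to 1013 in LK WT, 175 to 177 in old and 406 to 513 in young WT Cd11b libraries. Young MT replicate 3 and young WT replicate 4 stood apart from the rest of their groups, together, and carried sex-linked expression unlike the rest of their groups. Replicates 2 and 3 of each 18-month group were closer to each other than to replicate 1, with a chi-square per degree of freedom over all genes of 2.92 to 6.39 against 13.7 to 44.5. Over the 268 genes these values were 1.15 to 1.57 against 3.72 to 6.70, where 1 is counting noise alone. The labels list them as separate samples and they were kept so, but whether replicates 2 and 3 are separate preparations of 1 source was not tested, and results with both summed stand beside the calls they end. In bulk samples, fewer cells of a type and less RNA per cell cannot be told apart.

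The 268 genes were transcribed at low to moderate levels in all 6 groups. In LK WT cells, mean CPM ranged from 0.0464 to 242.9, with 18 genes under 1 CPM and 21 at 50 CPM or more. In old Cd11b WT cells 49 genes were under 1 CPM and 31 at 50 CPM or more, and in young Cd11b WT cells 26 and 33. None was at 0 in every library of a group, which the choice of listed genes partly fixes. Per kb of transcript, the median level of KRAB genes was 1.62 CPM in LK WT, 1.20 in old Cd11b WT and 1.56 in young Cd11b WT cells. The genes with fingers and no KRAB or SCAN domain had medians of 5.22, 4.67 and 5.27 CPM per kb in the same order.

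Zfp207, which encodes a spindle protein, led both LK WT (67.1 CPM per kb) and old Cd11b WT cells (54.6 CPM per kb). In LK WT cells it was followed by Zfp706 (36.5), Zfp146 (29.5), Zfp598 (27.0), Zfp106 (26.7) and Zfp869 (25.6). In old Cd11b WT cells it was followed by Zfp414 (42.9), Zfp740 (38.9), Zfp217 (38.3), Zfp445 (33.3) and Zfp710 (33.1), all in CPM per kb. Zfp598 encodes the ubiquitin ligase that marks collided ribosomes, and Zfp445 is a KRAB gene whose protein guards imprinted loci. The CPM of Zfp207 itself spanned 202 to 253 in the 3 LK WT and 172 to 192 in the 3 old WT libraries.

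Summed over the 268 genes, the level was 6055 to 6513 CPM in young Cd11b, 5619 to 6138 CPM in old Cd11b and 4771 to 5129 CPM in LK libraries. The order of old Cd11b and LK cells turned with the scaling. As CPM without TMM factors, the old libraries held 4556 to 5013 and the LK libraries 5864 to 6525. Within LK cells the genotypes did not overlap in this sum on either scale. The 3 LK MT libraries summed to 4771, 4948 and 4984 CPM and the 3 LK WT libraries to 5129, 5104 and 5071 CPM. Without TMM factors they held 5974, 5876 and 5864 against 6265, 6492 and 6525 CPM. The median CPM over the 268 genes did overlap, at 10.24, 10.37 and 10.63 in LK MT and 10.58, 10.30 and 10.32 in LK WT libraries.

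**Figure D1:**
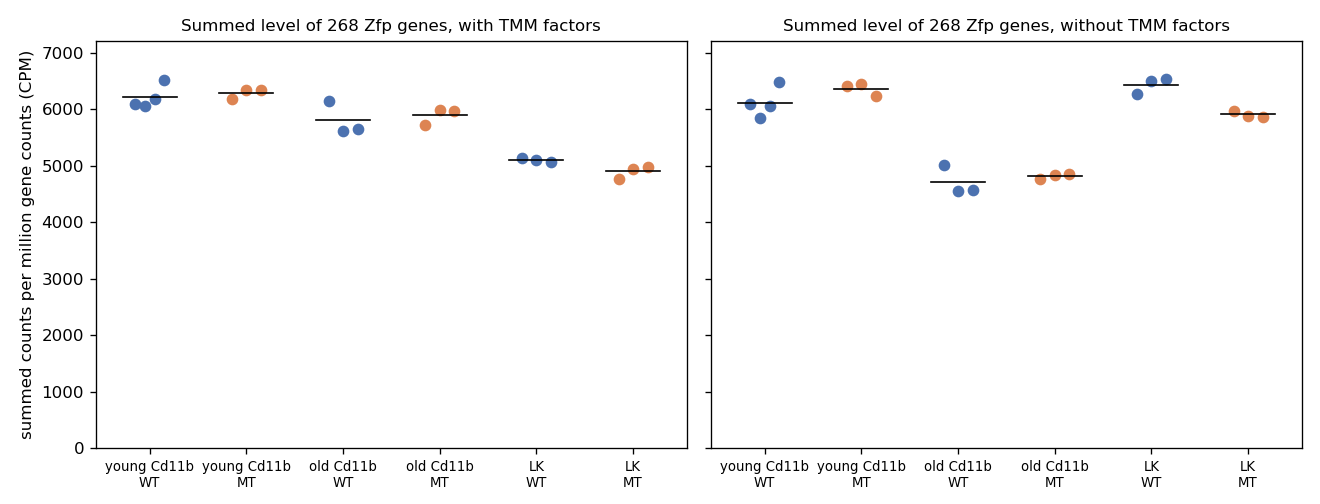
Summed CPM of the 268 Zfp genes in each of the 19 libraries (points; WT blue, MT orange; lines are group means), with TMM factors on the left and without on the right. LK libraries sit lowest on the left (4771 to 5129), and old Cd11b libraries sit lowest on the right (4556 to 5013).

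Asxl1 genotype was compared first in young Cd11b cells, where no Zfp gene passed the test. None of 260 genes tested was called by edgeR's quasi-likelihood test at an adjusted p under 0.05, and of all genes tested 0% were. At an unadjusted p under 0.05 there were 14 of the 260, against 444 of all 13755 genes tested. The median log2 fold change (MT over WT) of the 260 was 0.04, against -0.01 for all genes. For KRAB genes it was 0.09, with 92 of 128 above 0, and for genes without a KRAB box 0.02. Of all 13755 genes, 6558 were above 0. Values also moved with GC content, with a Spearman's rho of -0.26 over the 260 genes and -0.16 over all genes with a length. With each library's trends with length and GC content removed, the KRAB median was 0.08, with 88 of 128 above 0. DESeq2 also called none. The groups did not overlap for 17 genes (6.54%, against 4.44% of all genes tested).

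The smallest unadjusted p in young cells belonged to Zfp827, whose protein recruits the NuRD complex at telomeres. Its levels were 3.78, 5.09 and 2.45 CPM in MT and 1.81, 2.24, 1.68 and 1.30 CPM in WT libraries. All MT libraries were above all WT libraries, with a log2 fold change of 1.10 ± 0.27 (SE, n = 3 and 4; edgeR adjusted p = 0.99). Next came Zfp503 (0.71), Zfp248 (1.26) and Zfp958 (0.31), each higher in MT on the log2 scale without passing. Without the 2 young libraries that stand apart, 2 genes passed, where 0.497% of all genes did. Zfp827 was called higher at 1.23 (edgeR adjusted p = 0.0304) and Zfp622 lower at -0.33 (edgeR adjusted p = 0.0374).

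In old Cd11b cells no Zfp gene passed either. Of 257 tested, 0 were called, against 0.336% of all genes, and 23 passed an unadjusted p of 0.05. With DESeq2 there were 3 calls (Zfp282 and Zfp467 higher, Zfp628 lower), where 3.84% of all genes were called. The median log2 fold change was 0.02 for the 257 and 0.00 for all genes. The groups did not overlap for 54 genes (21%, against 22.5% of all genes). One library decided this count of calls: without WT replicate 1, 25 genes were called (23 higher, 2 lower) and 13.3% of all genes.

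The nearest to the threshold in old cells was Zfp628, lower in MT. Its levels were 30.3, 29.9 and 30.5 CPM in MT and 37.4, 35.0 and 34.9 CPM in WT libraries, with no overlap. The log2 fold change was -0.25 ± 0.05 (SE, n = 3 and 3; edgeR adjusted p = 0.0786). Zfp282, whose human counterpart binds a retroviral promoter, lay the other way. It stood at 22.7, 22.8 and 24.5 CPM in MT against 19.4, 20.2 and 19.1 CPM in WT libraries (0.25 ± 0.06; edgeR adjusted p = 0.0982). Zfp239 stood at 0.377, 0.410 and 0.395 CPM in MT and 0.0856, 0.147 and 0.200 CPM in WT libraries. These levels are low, and the log2 fold change of 1.41 ± 0.38 did not pass (edgeR adjusted p = 0.142).

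In LK cells the genotypes differed. Of 262 Zfp genes tested, 51 were called in MT against WT, 11 higher and 40 lower. These are 19.5% of the genes tested, against 29.8% of all genes, of which 13.9% were higher and 15.9% lower. The median log2 fold change was -0.04, against 0.02 for all genes. Among KRAB genes 4 rose and 12 fell of 131, among SCAN genes 0 and 5 of 13, and among the other genes with fingers 7 and 23 of 109. None of the 5 tested without a finger pattern was called. All 51 had groups that did not overlap, as had 96 of the 262 in all (36.6%, against 43.2% of all genes tested). The changes were small: 2 genes passed 2-fold, and the median size of the 51 was 0.38 on the log2 scale.

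These calls depend on how the LK replicates are treated. With replicates 2 and 3 of each group summed into 1 library, none was called, against 0.0207% of all genes, and 45 of 265 had an unadjusted p under 0.05. Leaving out 1 library gave 14 to 74. There were 74 without LK WT replicate 1 (38.8% of all genes) and 70 without LK MT replicate 1 (35.9%). Without each of the other 4 there were 14 to 18 (6.87% to 8.28% of all genes). Myeloid markers moved with the LK genotype: their summed CPM was 12727 to 18079 in MT and 10635 to 12436 in WT libraries, and 6 of the 12 tested were called higher. The summed progenitor markers were at 922 to 990 against 996 to 1013 CPM, erythroid markers at 3350 to 3394 against 3531 to 3777 CPM, and mast cell and basophil markers at 133 to 146 against 160 to 181 CPM. T and NK cell markers were at 194 to 252 against 161 to 200 CPM, B cell markers at 44 to 72 against 41 to 53 CPM and megakaryocyte markers at 259 to 408 against 217 to 275 CPM. The part of these markers in the Zfp results was not tested.

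Transcript length moved with the LK genotype effect as well. Sorted by the length of the longest transcript, the median log2 fold change of all genes fell from 0.18 in the shortest quartile (up to 2069 bases) to 0.05, -0.04 and -0.16 in the longest (from 4697 bases). Zfp genes followed the same order with 0.06, 0.01, -0.05 and -0.11. In the shortest quartile 2 Zfp genes were called higher and 2 lower, in the next 3 and 3, then 3 and 12, and in the longest 3 and 23. Genes called lower had a median length of 5400.5 bases, those called higher 3334 bases and those not called 3495 bases. Spearman's rho between length and log2 fold change was -0.47 over 13739 genes and -0.35 over the 262 Zfp genes. Both are descriptions across genes of the same 6 libraries.

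The test was repeated with each library's trends with length and GC content removed. The Zfp genes then had a median of -0.00, against 0.01 for all genes. There were 39 calls, 13 higher and 26 lower, against 21.5% of all genes (10.3% higher, 11.1% lower). Of the 51 genes called before, 30 were still called, 6 of the 11 higher and 24 of the 40 lower, and 9 genes were called only now. One of these 9 was Zfp809. In the accounts below, a value with both trends removed follows the first only where it is stated. Values given alone are from the test without this correction.

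**Figure D2:**
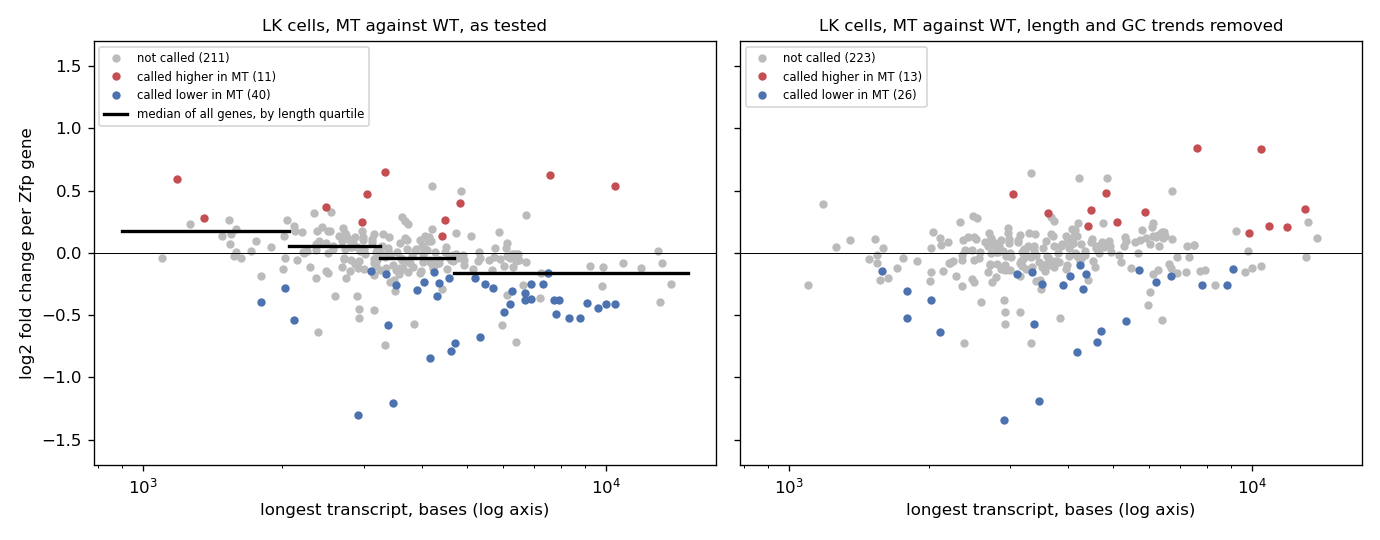
Log2 fold change (MT over WT) of each of the 262 Zfp genes tested in LK cells against the length of its longest transcript (log axis), as tested on the left and with length and GC trends removed on the right. Blue and red points are the 40 lower and 11 higher calls on the left and the 26 and 13 on the right, and black lines are the medians of all genes per length quartile (0.18, 0.05, -0.04 and -0.16), drawn over the plotted range of lengths.

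KRAB repressors with known targets were taken first. Zfp445, whose protein keeps methylation at imprinting control regions, stood at 76.3, 76.0 and 74.0 CPM in LK MT and 91.2, 104 and 98.4 CPM in LK WT libraries. The groups did not overlap, and the log2 fold change was -0.41 ± 0.06 (SE, n = 3 and 3; edgeR adjusted p = 0.00675). With the trends removed it was -0.23 (edgeR adjusted p = 0.00795). Zfp568, whose protein represses a placental transcript of Igf2, stood at 36.3, 37.2 and 37.8 CPM against 40.7, 44.0 and 44.6 CPM. It fell by 0.25 (edgeR adjusted p = 0.0144), but with the trends removed the value was -0.04 (edgeR adjusted p = 0.538).

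Zfp809 encodes the KRAB protein that recognises the proline primer binding site of murine leukemia virus and VL30 elements. Its LK levels overlapped between genotypes, at 9.54, 10.5 and 10.8 CPM in MT and 10.6, 11.8 and 11.98 CPM in WT libraries. The log2 fold change of -0.19 ± 0.08 did not pass (edgeR adjusted p = 0.118), and with the trends removed it was -0.31 (edgeR adjusted p = 0.0418). Zfp932, a repressor of a class of endogenous retroviruses, had -0.16, and Zfp819, which is linked to retroelement repression, had -0.20. Zfp708, whose protein binds another retroelement family, had 0.18, and none of these 3 passed. Of the 6 genes of this group, 0 rose and 2 fell, with a median of -0.20 (-0.23 with the trends removed). Without that removal 13.9% of all genes were called higher and 15.9% lower.

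The 7 endogenous retrovirus subfamilies that ZFP809 is known to silence were read from the repeat counts, scaled with the gene counts. In LK cells the 3 internal parts that were called fell in MT. MMVL30-int was at 239.5 ± 7.73 CPM in MT and 320.5 ± 21.4 CPM in WT (SD, n = 3; log2 fold change -0.45, edgeR adjusted p = 0.000544). RLTR4_MM-int was at 627 ± 60.6 against 847 ± 92.2 CPM (-0.47, edgeR adjusted p = 0.00141). RLTR6-int was at 45.4 ± 1.60 against 54.1 ± 1.45 CPM (-0.28, edgeR adjusted p = 0.0059).

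The 4 long terminal repeat subfamilies had positive values that did not pass, namely RLTR6_Mm 0.11, RLTR4_Mm 0.22, RLTR6B_Mm 0.25 and RLTR6C_Mm 0.51. Of all repeat subfamilies 20% were called in LK cells. None of the 7 was called in young or old MT against WT, where 0% and 0.458% of subfamilies were. With LK replicates 2 and 3 summed none of the 7 was called, and without LK MT replicate 1 the number was 5, of which 2 were higher. Repeat counts hold reads from many copies, and reads cannot be assigned to single loci here. Length and GC trends were not removed from repeat counts, and the part of length in these values was not tested.

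Zfp644 and Zfp462 encode partners of the EHMT1-EHMT2 complex and moved in opposite directions in LK cells. Zfp644 stood at 26.7, 26.4 and 27.9 CPM in MT and 30.9, 33.1 and 33.9 CPM in WT libraries. It fell by 0.30 (SE 0.06; edgeR adjusted p = 0.00975), and with the trends removed the value was -0.14 (edgeR adjusted p = 0.0568). Zfp462 stood at 1.86, 1.58 and 1.45 CPM in MT and 1.12, 1.09 and 1.10 CPM in WT libraries. It rose by 0.53 ± 0.17 (edgeR adjusted p = 0.0477) and by 0.83 with the trends removed (edgeR adjusted p = 0.0148), from a level near 1 CPM. The Zfp462 call held in 3 of 14 alternatives.

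Regulators in blood or immune cells gave 0 higher and 4 lower of 11 tested, with a median of -0.13. Over all genes 13.9% were higher and 15.9% lower. The 4 were Zfp292 (-0.41), Zfp217 (-0.29), Zfp335 (-0.21) and Zfp131 (-0.14). ZFP335 is needed for the maturation of T cells, and ZFP217 is a partner of a histone demethylase complex. With the trends removed there were 2 higher and 2 lower, with a median of -0.04, where 10.3% of all genes were higher and 11.1% lower. Zfp521, a regulator of stem and progenitor cells, stood at 5.19, 4.06 and 4.16 CPM in MT and 4.05, 4.94 and 4.54 CPM in WT libraries. These overlapped (-0.04 ± 0.15; edgeR adjusted p = 0.849).

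Among proteins that act on RNA, ribosomes, the spindle or SUMO, 1 gene rose and 2 fell of 5. Over all genes 13.9% were higher and 15.9% lower. Zfp622, a factor of ribosome large subunit assembly, stood at 67.5, 72.9 and 73.2 CPM in MT and 62.4, 57.0 and 55.2 CPM in WT libraries. It rose by 0.26 ± 0.05 (edgeR adjusted p = 0.00818) and by 0.34 with the trends removed. Zfp106, whose protein binds RNA, had the highest CPM of the 268 genes in LK WT cells before division by length, at 236, 247 and 245 CPM. In MT it stood at 193, 184 and 185 CPM, a fall of 0.40 ± 0.05 (edgeR adjusted p = 0.00627) and of 0.13 with the trends removed (edgeR adjusted p = 0.0325). Its longest transcript measures 9085 bases (chr2:120506820-120563843, GRCm38, minus strand). Zfp598 fell by 0.17.

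The remaining named genes gave 1 higher and 2 lower of 7, where 13.9% of all genes were higher and 15.9% lower. Zfp609, whose protein works with the cohesin loader and the Integrator complex, stood at 37.6, 35.4 and 35.5 CPM in MT and 46.1, 52.3 and 51.2 CPM in WT libraries. It fell by 0.49 ± 0.07 (edgeR adjusted p = 0.00627), and by 0.26 with the trends removed (edgeR adjusted p = 0.0067). Zfp800 stood at 45.3, 46.7 and 45.7 against 54.96, 59.3 and 57.3 CPM and fell by 0.35 (0.29 with the trends removed). Zfp827 stood at 3.23, 2.96 and 3.08 against 2.32, 1.93 and 1.61 CPM and rose by 0.63 ± 0.15 (edgeR adjusted p = 0.0193), and by 0.85 with the trends removed. Zfp827 was thus above WT in all MT libraries of both young Cd11b and LK cells, while only the LK difference passed.

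The largest falls in LK cells were in KRAB and SCAN genes of low level. Zfp369 encodes a relative of a neurotrophin receptor partner (chr13:65278814-65304221, plus strand). It stood at 2.06, 1.26 and 1.65 CPM in MT and 2.75, 4.53 and 4.76 CPM in WT libraries, with no overlap. It fell by 1.31 ± 0.27 (edgeR adjusted p = 0.0119), and by 1.34 with the trends removed (edgeR adjusted p = 0.0153). Zfp112 (chr7:24112314-24127952, plus strand), with the 3 ZFP143 matches printed above, stood at 0.368, 0.515 and 0.341 against 0.669, 0.983 and 1.12 CPM. It fell by 1.20 ± 0.29 (edgeR adjusted p = 0.0181), and by 1.19 with the trends removed.

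The next in order were Zfp169 (-0.85), Zfp458 (-0.79), Zfp167 (-0.72) and Zfp626 (-0.67), each called with the trends removed too. Zfp169 stood at 1.76, 1.59 and 1.65 CPM in MT and 2.23, 3.06 and 3.54 CPM in WT libraries. In Zfp369, Zfp112 and Zfp169 the lowest WT library was replicate 1. Each of these 6 calls held in 8 of 14 alternatives, against 12 of 14 for Zfp106, Zfp445, Zfp609 and Zfp800.

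The largest rises in LK cells after Zfp459 (0.65), Zfp827 and Zfp428 (0.59) were Zfp462, Zfp286 (0.48) and Zfp826 (0.40). Zfp826, a KRAB gene with 17 fingers, stood at 16.5, 16.3 and 17.4 CPM in MT and 13.4, 11.99 and 11.7 CPM in WT libraries. It rose by 0.40 ± 0.06 (edgeR adjusted p = 0.00693), and by 0.48 with the trends removed (edgeR adjusted p = 0.00639). Zfp428 stood at 3.75, 3.82 and 4.36 against 2.85, 2.76 and 2.10 CPM, and with the trends removed its value of 0.39 did not pass (edgeR adjusted p = 0.0626). The Zfp459 call held in 2 of 14 alternatives.

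**Figure D3:**
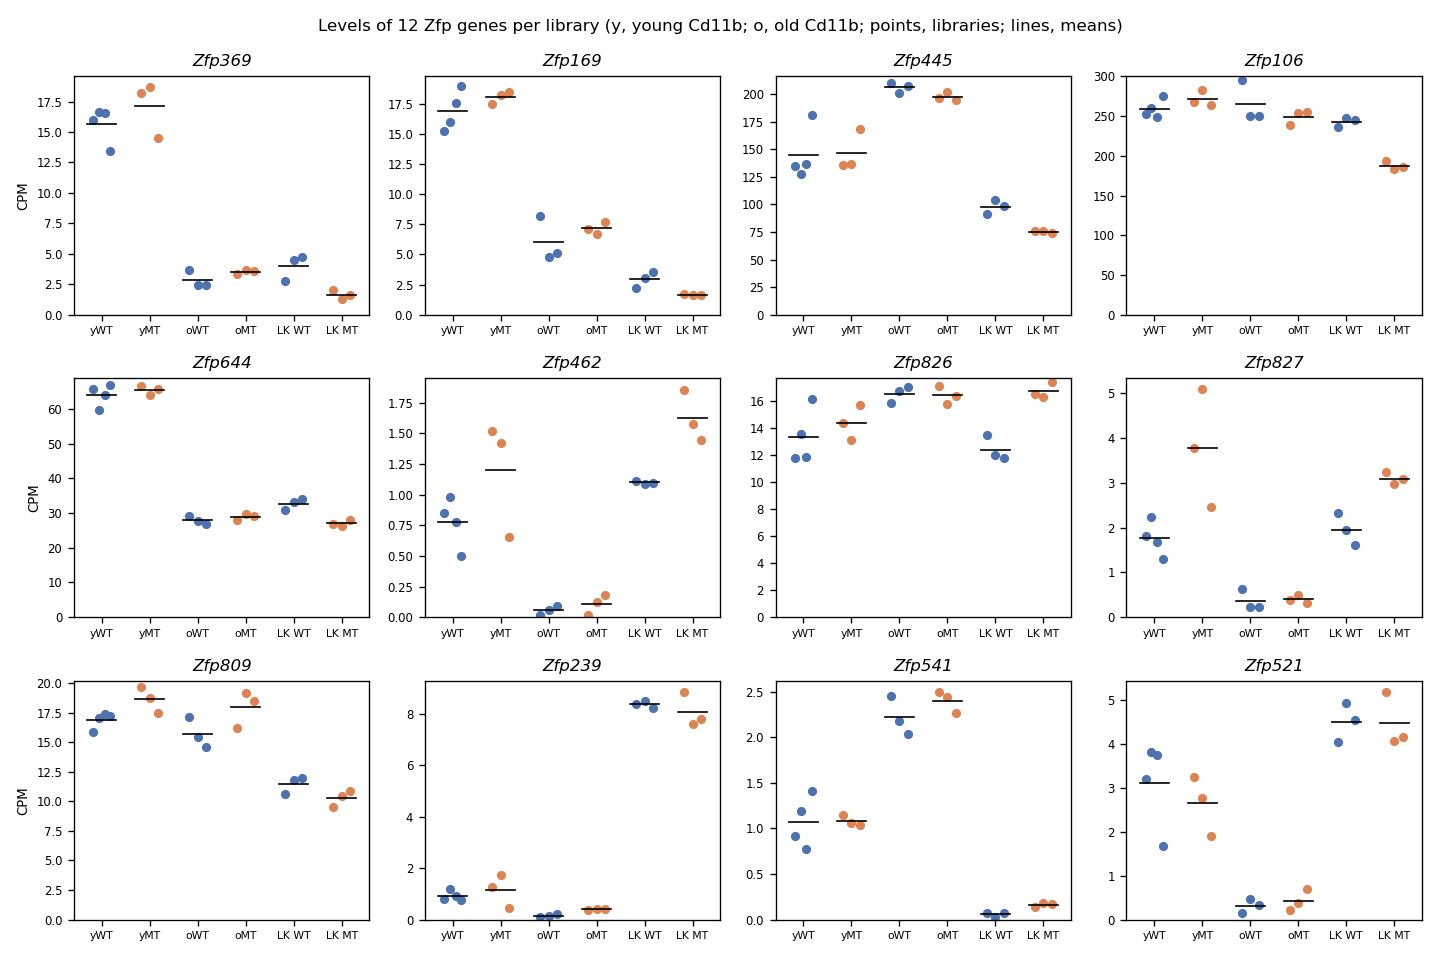
CPM of 12 Zfp genes in each library (points; WT blue, MT orange; lines are group means) of young Cd11b, old Cd11b and LK cells; each axis starts at 0 and has its own scale. Zfp369, Zfp169, Zfp445, Zfp106 and Zfp644 lie lower and Zfp462, Zfp826 and Zfp827 higher in MT than in WT LK libraries, without overlap, while Zfp809 and Zfp521 overlap there.

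Of 33 names in the silencing pathway, which holds partners of KRAB proteins and other silencing factors, 29 were tested. In LK cells 1 rose and 14 fell, where 13.9% of all genes were higher and 15.9% lower, with a median of -0.12 (2 and 12, with a median of -0.09, with the trends removed). With replicates 2 and 3 summed, 0 of the 29 were called, against 0.0207% of all genes, and 11 of them had an unadjusted p under 0.05. Trim28, the common partner, stood at 495.6 ± 19.5 CPM in MT and 509.4 ± 11.9 CPM in WT (SD, n = 3; log2 fold change -0.07, edgeR adjusted p = 0.183). Setdb1 fell by 0.22 (edgeR adjusted p = 0.00988), and Atf7ip, which stabilises SETDB1, by 0.64 (edgeR adjusted p = 0.011). The maintenance methyltransferase gene Dnmt1 fell by 0.37, Smchd1 by 0.45, Atrx by 0.43, Wiz by 0.28 and Ehmt1 by 0.20. Ehmt2 had -0.07 and did not pass. Mphosph8, of the HUSH silencing complex, rose by 0.35 (edgeR adjusted p = 0.0094).

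The genotype effect was compared between LK and old Cd11b cells by an interaction term over 4 groups. A negative value says that MT over WT was lower in LK than in old Cd11b cells. Of 264 Zfp genes tested, 44 were called, 7 positive and 37 negative, which is 16.7% against 20.7% of all genes (8.79% positive, 12% negative). The median was -0.07, against 0.01 for all genes. In 31 of the 37, the fitted change was downward in LK and upward in old cells, and in 5 it was downward in both. Of the 51 genes called in LK cells, 30 were among the 44. With the length and GC trends removed, 21 were called (6 positive, 15 negative), against 11.2% of all genes (4.72% positive, 6.49% negative). With replicates 2 and 3 summed none was called. Leaving out 1 library gave 65 without old Cd11b WT replicate 1 (29.6% of all genes). It gave 36 to 52 without old Cd11b MT, LK MT or LK WT replicate 1 (21.9% to 27.3%). Without any single replicate 2 or 3 it gave 14 to 21 (8.01% to 11.1%).

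Among the calls were Zfp369 (-1.60 ± 0.35; edgeR adjusted p = 0.0119), Zfp169 (-1.09), Zfp458 (-1.01), Zfp800 (-0.52), Zfp407 (-0.56) and Zfp609 (-0.56). Each of these kept its call with the trends removed. Zfp369 was at 3.31, 3.67 and 3.58 CPM in old MT and 3.70, 2.47 and 2.41 CPM in old WT libraries, where the groups overlapped. Zfp239 had the smallest p (-1.49 ± 0.29; edgeR adjusted p = 0.00776), with the rise at low level in old MT cells given above and overlapping LK groups. Positive calls included Zfp826 (0.41 ± 0.09; edgeR adjusted p = 0.0109), Zfp622 (0.21) and Zfp541 (1.36). The level of Zfp541 in LK WT libraries was very low, as given below, so its value rests on few reads there. In old Cd11b cells Zfp826 stood at 17.1, 15.8 and 16.3 CPM in MT and 15.8, 16.7 and 16.99 CPM in WT libraries.

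**Figure D4:**
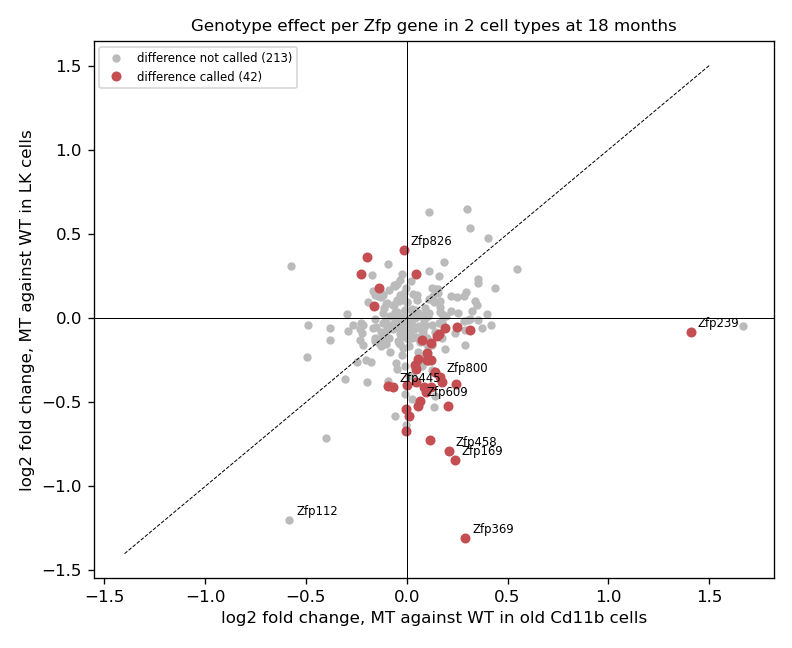
Log2 fold change (MT over WT) in LK cells against that in old Cd11b cells for the 255 Zfp genes tested in both (points; dashed line, equal change). Red points are the 42 of them with a called interaction, most of which lie below the dashed line, with Zfp369 lowest.

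A test of whether the genotype effect differed between the 2 ages of Cd11b cells called 0 of 262 Zfp genes, against 0.0214% of all genes. At an unadjusted p under 0.05 there were 14, and DESeq2 also called 0. Without the 2 young libraries that stand apart it called 2, Zfp617 at -0.71 and Zfp622 at 0.38 (old minus young, log2), where 0.543% of all genes were called.

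LK cells differed from old Cd11b cells in most Zfp genes. The WT libraries used here are also those of the LK and old genotype comparisons. Of 263 tested, 228 were called, 130 higher and 98 lower in LK, which is 86.7% against 86.8% of all genes (45.1% higher, 41.7% lower). The median log2 fold change was 0.28, against 0.08 for all genes, and 128 genes passed 2-fold. The groups did not overlap for 240 (91.3%, against 88.6% of all genes). KRAB genes had a median of 0.39 (68 higher, 45 lower of 130), and genes without a KRAB box 0.17 (59 and 52 of 129). SCAN genes had 9 higher and 2 lower of 13. With length and GC trends removed, the medians were 0.26 for KRAB genes, 0.05 for genes without a KRAB box and -0.00 for all genes. With RLE factors the counts were 125 and 104, and with all 19 libraries in 1 fit 143 and 90.

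Zfp239 was the furthest above its level in Cd11b cells. It stood at 8.39, 8.49 and 8.22 CPM in LK WT and 0.0856, 0.147 and 0.200 CPM in old Cd11b WT libraries (log2 fold change 5.71 ± 0.21; edgeR adjusted p = 2.68e-08). Zfp428 (5.31), Zfp783 (4.25), Zfp820 (4.21), Zfp184 (4.17), Zfp462 (4.08) and Zfp521 (3.78) followed among the named genes. Zfp521 stood at 4.05, 4.94 and 4.54 CPM in LK WT and 0.150, 0.471 and 0.327 CPM in old Cd11b WT libraries.

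In the other direction, Zfp541, known from male meiosis, stood at 0.0687, 0.0307 and 0.0732 CPM in LK WT and 2.46, 2.18 and 2.03 CPM in old Cd11b WT libraries. Its log2 fold change was -5.37 ± 0.30 (edgeR adjusted p = 3.4e-07). Zfp516, known as an activator in brown fat, was abundant in Cd11b cells, at 231, 202 and 198 CPM, and stood at 20.8, 22.4 and 23.1 CPM in LK WT libraries (-3.35 ± 0.08; edgeR adjusted p = 3.1e-09). Zfp831 (-2.79), Zfp276 (-2.64), Zfp608 (-2.47) and Zfp710 (-2.38) were lower in LK as well.

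By role, blood regulators gave 2 higher and 8 lower of 11 in LK cells. The counts by role stand beside 45.1% of all genes higher and 41.7% lower. Lower blood regulators included Zfp217 (-1.94), Zfp292 (-1.26) and Zfp143 (-1.14). The 6 KRAB repressors with known targets gave 2 higher and 3 lower. Zfp708 (2.05) and Zfp568 (0.60) were higher and Zfp445 (-1.17), Zfp932 (-0.64) and Zfp809 (-0.55) lower. Of the 7 ZFP809 subfamilies, RLTR6B_Mm was higher in LK (0.70), RLTR4_Mm did not pass and the other 5 were lower, MMVL30-int at -2.77, where 85.8% of all repeat subfamilies were called. The silencing pathway gave 22 higher and 4 lower of 29, with a median of 0.85, against 0.08 for all genes.

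Between 4 and 18 months, Zfp genes in WT Cd11b cells were lower more often than higher. The old libraries are shared with the comparisons above, and age cannot be told apart from any batch between the 2 ages. Of 260 tested, 165 were called, 48 higher and 117 lower in old cells. This is 63.5% against 73.1% of all genes, of which 36.1% were higher and 36.9% lower. The median log2 fold change (old over young) was -0.23, against -0.02 for all genes. For KRAB genes it was -0.35 (22 higher, 64 lower of 127), and for genes without a KRAB box -0.13 (26 and 50 of 129). Old and young libraries did not overlap for 166 genes (63.8%, against 72.1% of all genes).

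Length moved with age too. By length quartile, the medians were 0.29, 0.14, -0.01 and -0.37 for all genes and 0.10, -0.09, -0.29 and -0.48 for Zfp genes. With length and GC trends removed, 64 were higher and 104 lower, with a median of -0.14, where 72.7% of all genes were called (37.7% higher, 35% lower). KRAB genes were then at -0.31 and genes without a KRAB box at -0.02. Cells other than myeloid ones moved with age as well. Summed markers in young against old WT libraries were 102 to 222 against 39 to 62 CPM for B cells, 253 to 317 against 19 to 38 CPM for mast cells and basophils, and 183 to 306 against 69 to 79 CPM for erythroid cells. They were 69 to 103 against 37 to 44 CPM for T and NK cells and 53 to 71 against 24 to 40 CPM for megakaryocytes. With the progenitor markers above, their part in the Zfp result was not tested.

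Among the genes lower in old cells were several that were higher in LK than in old Cd11b cells. Both comparisons use the same old WT libraries, so a low level in these moves both at once. Zfp521 stood at 0.150, 0.471 and 0.327 CPM in old and 3.21, 3.82, 3.76 and 1.69 CPM in young WT libraries (-3.36 ± 0.40; edgeR adjusted p = 2.24e-05). Zfp462 (-3.67), Zfp783 (-2.97), Zfp239 (-2.66), Zfp820 (-2.61) and Zfp599 (-2.57) were lower by similar amounts. Their levels were low in young WT libraries too, at 0.498 to 0.981 CPM for Zfp462 and 0.766 to 1.19 CPM for Zfp239. Zfp820 stood there at 1.19 to 1.51, Zfp599 at 2.45 to 3.12 and Zfp783 at 3.03 to 4.77 CPM. Zfp369 stood at 3.70, 2.47 and 2.41 CPM in old and 16.0, 16.7, 16.5 and 13.4 CPM in young WT libraries (-2.47 ± 0.16; edgeR adjusted p = 3.9e-07). Zfp644 stood at 29.2, 27.5 and 26.8 against 65.6, 59.5, 63.9 and 66.7 CPM (-1.22 ± 0.07; edgeR adjusted p = 1.26e-07). Old and young libraries did not overlap in any of these 3 genes.

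Higher in old cells were Zfp617 (1.15), Zfp688 (1.09), Zfp541 (1.04), Zfp821 (1.02), Zfp740 (0.996) and Zfp784 (0.92). Zfp617, a KRAB gene on chromosome 8, stood at 14.4, 14.1 and 14.9 CPM in old and 6.09, 5.85, 5.60 and 8.27 CPM in young WT libraries. Its log2 fold change was 1.15 ± 0.13 (edgeR adjusted p = 1.81e-05). Zfp740 stood at 165, 163 and 167 against 76.5, 76.9, 80.3 and 93.0 CPM. Zfp445, abundant at both ages, was higher in old cells by 0.49 ± 0.11 (edgeR adjusted p = 0.00184), at 210, 201 and 208 against 135, 127, 137 and 181 CPM.

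Of the silencing pathway 7 were higher and 17 lower of 29 in old cells, with a median of -0.29. Over all genes tested 36.1% were higher and 36.9% lower. With length and GC trends removed the pathway gave 10 higher and 15 lower, with a median of -0.18. In that fit 37.7% of all genes were higher and 35% lower. Zfp809 did not pass (-0.12; edgeR adjusted p = 0.206), and with the trends removed its value was -0.35 (edgeR adjusted p = 0.00593). Of its 7 repeat subfamilies, RLTR6B_Mm (-1.26) and RLTR6_Mm (-0.63) were called lower in old cells and the other 5 did not pass, against 91.4% of all repeat subfamilies called.

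**Figure D5:**
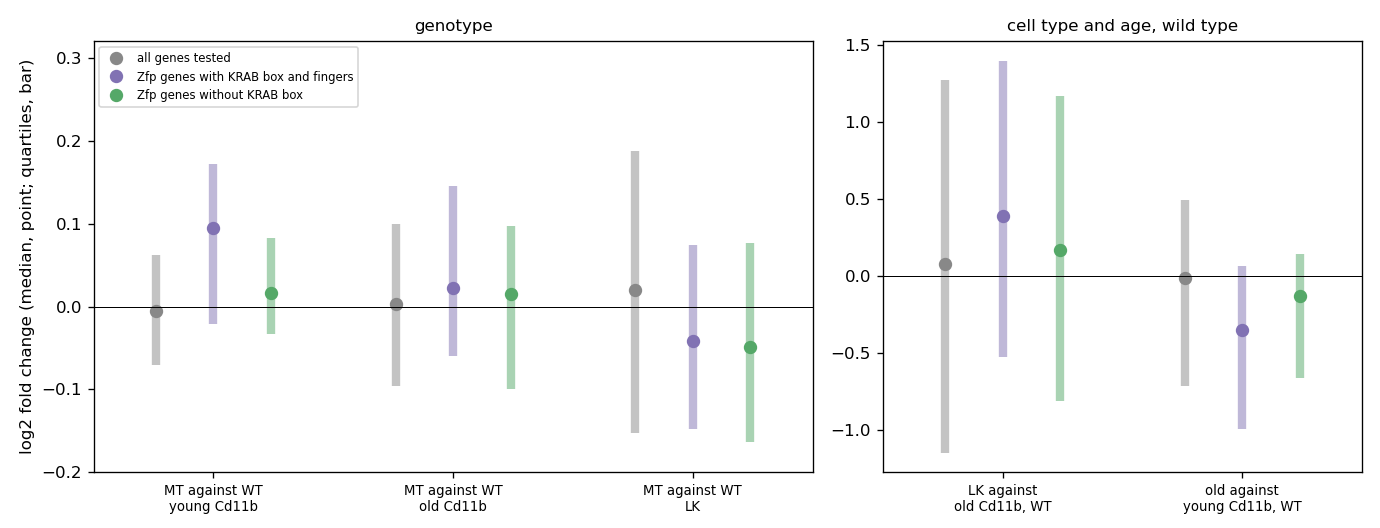
Median log2 fold change (points) and quartiles (bars) of all genes tested, of Zfp genes with KRAB box and fingers and of Zfp genes without KRAB box, for the 3 genotype comparisons on the left and for cell type and age in WT libraries on the right, on different vertical scales. KRAB genes lie at 0.39 between LK and old Cd11b cells and at -0.35 between old and young Cd11b cells, where all genes lie at 0.08 and -0.02.

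Genes with and without the ZFP143 motif were set side by side, without a test. Over all genes tested, 29.8% were called between LK genotypes, 73.1% between old and young cells and 86.8% between LK and old Cd11b cells. In LK MT against WT, 0 rose and 4 fell of 36 genes with the motif, at a median of -0.01, and 8 rose and 25 fell of 178 without it, at -0.05. Between old and young cells, 2 were higher and 16 lower of 36 with it (-0.30), and 44 and 76 of 177 without it (-0.13). Between LK and old Cd11b cells, 18 and 10 of 36 (0.32) compare with 82 and 72 of 178 (0.15). Zfp143 itself is one of the 268 genes. It stood at 26.8, 29.7 and 29.2 CPM in LK WT, 59.9, 59.0 and 58.2 CPM in old WT and 35.2, 37.0, 37.3 and 39.5 CPM in young WT libraries. It was higher in old than in young Cd11b cells by 0.64, lower in LK than in old Cd11b cells by 1.14 on the log2 scale, and did not pass between LK genotypes (-0.13; edgeR adjusted p = 0.158).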

How the data were processed

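Total RNA of sorted mouse bone marrow cells was sequenced in 19 libraries, prepared with a directional kit per the labels' protocols. The values are read counts per gene and per repeat subfamily, as deposited by the authors, and the submitters' processing notes name STAR, HTSeq, DESeq2 and mm10, with no role or version. The members and all gene lists were chosen with earlier results of these data known.

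Counts as deposited were tested with edgeR 4.0.16 (quasi-likelihood, TMM, low-count filter) on the groups compared, and p-values were adjusted (Benjamini-Hochberg) over all genes tested, with a threshold of 0.05. CPM use TMM factors of all 19 libraries, and a fitted fold change can differ slightly from the ratio of mean CPM. Domains were read from GENCODE M21 coding sequences on GRCm38, and 13 symbols were matched through RefSeq synonyms. Length and GC trends were removed per library by a smooth curve (span 0.3). Repeat counts were tested in the same way, with scaling from the gene counts and without removal of length or GC trends.

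Named genes were those in the role lists; in each comparison of 2 groups the 6 called genes per direction with the largest fold change, at least 20 counts on average in the group with more, and separate groups; the 4 of smallest p where fewer than 4 were called, and in each interaction; and the 6 highest per kb in LK and in old Cd11b WT cells. Zfp143 is in a role list. Alternatives were DESeq2 1.42.0, RLE factors, no filter, all libraries in 1 fit, length or GC removed, a replicate block and each library left out. Those added after seeing the data were replicates 2 and 3 summed, both young libraries that stand apart left out, and all alternatives for repeats. In simulated LK counts of 15793 genes, 93.88% of 98 genes changed by 1 on the log2 scale and 34.69% of 98 changed by 0.4 were called. For the interaction with cell type these were 86.87% and 6.06% of 99 genes. The simulated replicates were independent, with the same dispersion for all genes and no length trend. The LK libraries differ from this, so these shares are not the power of the LK comparison.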

Additional observations from a re-analysis of the deposited data

Results flagged for a closer look

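In young WT Cd11b cells, where 4 libraries allow the test, 1 library lay far from the other 3 in 5 genes, of 69 genes tested. The gap as a share of the group's range passed Dixon's critical value, and was 0.8778 for Zfp414 (31.3 CPM in replicate 1 against 36.7, 37.4 and 36.7), 0.8295 for Zfp445 (replicate 4 highest) and 0.9142 for Zfp598 (38.5 CPM in replicate 4 against 43.9, 43.4 and 43.5). It was 0.927 for Zfp626 (6.90 CPM in replicate 2 against 10.4, 10.2 and 10.2) and 0.9089 for Zfp821 (10.4 CPM in replicate 1 against 12.7, 12.9 and 12.9). Chance flags about 1 in 20 groups.

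The genotype effect differed between LK and old Cd11b cells, by the interaction term of edgeR's quasi-likelihood test, in 24 of the named genes. The difference (LK minus old, log2) was largest for Zfp369 (-1.604), Zfp239 (-1.494), Zfp541 (1.363), Zfp169 (-1.089) and Zfp458 (-1.005). Levels of Zfp541 in LK WT and of Zfp239 in old Cd11b WT libraries were very low, so their values rest on few reads there. Zfp167 had -0.844, Zfp626 -0.678, Zfp318 -0.6422, Zfp609 -0.5633, Zfp407 -0.5626, Zfp800 -0.5196 and Zfp292 -0.5038. Zfp568 had -0.3759, Zfp644 -0.3581, Zfp445 -0.3475, Zfp146 -0.3266, Zfp106 -0.3156, Zfp282 -0.3117, Zfp335 -0.311, Zfp238 -0.2604 and Zfp746 -0.2152. The positive ones were Zfp826 (0.4106), Zfp414 (0.231) and Zfp622 (0.2102) beside Zfp541. With length and GC trends removed, 12 of these 24 were called, the 268 genes gave 21 calls in place of 44, and Zfp106 turned to 0.017 (edgeR adjusted p = 0.905). With replicates 2 and 3 summed, none of the 268 genes was called.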

How the results depend on the processing

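The call count in LK MT against WT was 0 with a replicate block and 0 with replicates 2 and 3 summed, 14 to 74 with 1 library left out, and its median was -0.015 with all libraries in 1 fit, 0.0018 with length and -0.0041 with length and GC removed, and -0.077 to -0.039 with 1 library left out. Replicate numbers were not taken as pairs: same-numbered libraries' deviations correlated by 0.49, 0.16 and -0.21 in young, -0.12, 0.15 and -0.07 in old and -0.47, -0.33 and -0.24 in LK comparisons. The interaction with cell type gave 26 with the replicate block, 22 with all libraries, 18 with length removed, 21 with length and GC removed and 0 with replicates summed, medians of -0.036, -0.0269 and -0.0273 with all libraries, length, and length and GC, and 14 to 65 calls (medians -0.086 to -0.036) with 1 library left out. Old MT against WT gave 3 with DESeq2, 2 with length and 1 with length and GC removed (median -0.0076), and 0 to 25 (0.01 to 0.04) with 1 library left out. Young MT against WT and the age interaction gave 0 in every other alternative (medians 0.03 to 0.06 and -0.06 to -0.01 with 1 library left out) and 2 each without both young libraries that stand apart. LK against old Cd11b gave 221 to 232 calls with 1 library left out (0.22 to 0.30), with medians of 0.20 (RLE and DESeq2), 0.38 (all libraries), 0.25 (length), 0.16 (length and GC) and 0.24 (replicates summed). Old against young gave 141 to 174 (-0.26 to -0.21), with medians of -0.28 (no filter), -0.17 (length) and -0.14 (length and GC). Signs turned with length, or length and GC, removed for Zfp106 in LK against old Cd11b (0.10, 0.013), for Zfp148 (0.33, 0.36), Zfp292 (0.27, 0.30) and Zfp831 (0.11, 0.089) in old against young, and for Zfp106 in the cell type interaction (0.017, length and GC). The ZFP809 repeat calls were 0 with replicates summed and 2 to 5 with 1 library left out. The summed level without TMM was 4820 (old MT), 4710 (old WT), 5905 (LK MT) and 6427 (LK WT), and without the 5 highest genes 5236 (young MT), 5194 (young WT), 4826, 4741, 4309 and 4440 CPM in the same order. Of the 30 genes named in LK cells, 84 of 180 values with 1 library left out and 92 of 270 others missed the threshold, with no sign turned. The share of all genes called moved with these counts. In the cell type interaction it was 13.9% with the replicate block, 13.2% with all libraries and 10.9% with length removed. With 1 library left out it was 83.0% to 86.5% in LK against old Cd11b and 66.3% to 75.9% in old against young. In old MT against WT it was 3.84% with DESeq2 and 0% to 13.3% with 1 library left out. The cause of these changes was not tested. Depth limits genes under about 1 CPM most.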

Other observations

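Clusters of at least 4 neighbouring genes did not all move alike. On chromosome 7, between 4915217 and 5053723 (GRCm38), the 6 genes Zfp628, Zfp579, Zfp524, Zfp865, Zfp784 and Zfp580, none with a KRAB box, gave 1 higher and 5 lower calls in LK against old Cd11b WT cells, and their median was -0.77 (log2), where 86.8% of all genes were called. In old against young WT cells, 4 of the 6 were higher and 0 lower, with a median of 0.49, where 73.1% of all genes were called. On chromosome 17, between 21707741 and 22166190, the 6 KRAB genes Zfp760, Zfp229, Zfp820, Zfp942, Zfp943 and Zfp947 gave 4 higher and 2 lower in LK (median 1.33) and 1 higher and 4 lower in old cells (median -1.11). On chromosome 13, between 67038596 and 67421418, lie 11 KRAB genes. Of the 10 tested in LK MT against WT, Zfp459 rose and Zfp458 fell. On chromosome 7, between 24081924 and 24262445, 7 genes that include Zfp112 gave 0 higher and 2 lower in LK MT against WT, with a median of -0.30, where 29.8% of all genes were called. Clusters were picked after their values were seen and were not tested as groups.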
